A study of Mus musculus with 12 samples.

Results

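The 6 genes described here are the mouse gastrokines Gkn1, Gkn2 and Gkn3 and the trefoil factors Tff1, Tff2 and Tff3, taken from the deposited gene table by their symbols. Each symbol matched 1 of the 55421 gene rows, and all 6 passed the low-count filter that left 16152 genes for testing. Messenger RNA was measured in organoids, 3-dimensional epithelial cultures in Matrigel started from isolated stomach glands of wild-type mice, with 3 lines (8025, 8026 and 8028) for each of corpus (the body of the stomach) and antrum (its outlet end). Established lines of both regions were split at day 4 after passage into 2 arms, which gives 4 groups of 3 libraries. The vehicle arm received DMSO in the usual medium, which holds 50% L-WRN, a medium conditioned by cells engineered to release Wnt, R-spondin and Noggin. The inhibited arm received XAV939, an inhibitor of tankyrases that lowers Wnt signalling (1 mM as labelled), lost the added Wnt and R-spondin, was given 100 ng/mL of Noggin, which blocks bone morphogenetic proteins, and was lysed 24 h later. The compound, the withdrawal of the ligands, Noggin and any other difference between the media of the 2 arms therefore cannot be told apart. The usual medium contained 20% fetal bovine serum in corpus cultures but 10% in antral ones, and serum and region likewise cannot be told apart. The labels call the lines of a region independent but do not tie them to animals, so the p-values measure the spread between these lines.

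Gastrokines are small secreted proteins of the stomach that carry a BRICHOS domain, a fold found in several secreted or membrane proteins that need a chaperone for another part of the chain. GKN1 and GKN2 are products of surface (pit) mucous cells, and GKN2 binds TFF1. GKN3 is known in mice from mucous neck cells of the corpus and from mucous cells deep in antral glands. Trefoil factors are short secreted peptides held in a clover-shaped fold by disulfide bonds; they bind mucins and promote repair of the epithelium. TFF1 is secreted by pit cells together with the mucin MUC5AC, TFF2 by neck and deep gland cells together with the mucin MUC6, and TFF3 is mainly a product of intestinal goblet cells.

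The 6 genes form 2 clusters of 3 neighbours. On GRCm38 with GENCODE mouse release 21, the gastrokines lie on chromosome 6: Gkn1 (ENSMUSG00000030050) from 87345650 to 87350942 on the minus strand, Gkn2 (ENSMUSG00000030049) from 87373357 to 87379497 on the plus strand and Gkn3 (ENSMUSG00000030048) from 87383256 to 87388935 on the minus strand. The trefoil factors lie on chromosome 17, all on the minus strand: Tff3 (ENSMUSG00000024029) from 31125306 to 31129646, Tff2 (ENSMUSG00000024028) from 31141049 to 31144282 and Tff1 (ENSMUSG00000024032) from 31161395 to 31165277. The annotation lists each of the 6 as protein-coding, and counts are given per gene. The longest stretch shared exactly by transcripts of any 2 of the 6 is 14 bases, between Tff2 and Tff3, so the members hold little sequence over which reads could be split.

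Gkn1 and Gkn2 rose under Wnt inhibition and their neighbour Gkn3 fell, as given below, so the sequences just before these 3 genes are shown side by side. They are the RefSeq promoter sequences on GRCm38.p6, 5′ to 3′ on the strand of the gene, cut before the first exon of either annotation: chr6:87350943-87351165 (minus) for Gkn1, chr6:87373115-87373356 (plus) for Gkn2 and chr6:87388936-87389185 (minus) for Gkn3. Capitals mark matches to any of 6 motifs searched on both strands: the TCF/LEF core CTTTGA bound by nuclear effectors of Wnt signalling, the FOX core TGTTTAC, the GATA core AGATAA, the KLF core CACCC, the xenobiotic response core GCGTG and the TATA box TATAAA.
Gkn1: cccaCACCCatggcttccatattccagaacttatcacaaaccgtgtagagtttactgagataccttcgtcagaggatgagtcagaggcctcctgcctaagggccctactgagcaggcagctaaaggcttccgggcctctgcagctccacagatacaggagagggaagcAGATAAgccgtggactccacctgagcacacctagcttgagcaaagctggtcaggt
Gkn2: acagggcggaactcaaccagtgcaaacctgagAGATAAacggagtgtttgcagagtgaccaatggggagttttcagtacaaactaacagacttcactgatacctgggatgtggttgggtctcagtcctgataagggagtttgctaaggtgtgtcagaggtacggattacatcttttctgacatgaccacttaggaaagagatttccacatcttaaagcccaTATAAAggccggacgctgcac
Gkn3: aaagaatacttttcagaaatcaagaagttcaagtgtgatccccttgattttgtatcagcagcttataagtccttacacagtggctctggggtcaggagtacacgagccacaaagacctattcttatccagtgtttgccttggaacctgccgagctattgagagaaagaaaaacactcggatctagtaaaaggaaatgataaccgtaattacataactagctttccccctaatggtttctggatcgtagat
The Gkn1 window held a GATA core 82 to 77 bases and a KLF core 246 to 242 bases before the RefSeq start. The Gkn2 window held a GATA core 218 to 213 bases and a TATA box 29 to 24 bases before its start. None of the 6 motifs was found in the Gkn3 window. Among 32851 RefSeq windows of 250 bases before a gene start, 13.8% held the TCF/LEF core, 3.17% the FOX core, 9.99% the GATA core, 52.0% the KLF core, 28.2% the xenobiotic response core and 12.4% the TATA box. The motifs do not overlap each other in letters, and a match is a match of letters only.

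Library totals ranged from 18858022 to 31656696 counts. Expression is given as CPM, counts scaled by TMM to a common library total, and 3 counts equal 0.0889 to 0.177 CPM depending on the library. The treatment was visible in every line: Lgr5, a Wnt-dependent stem cell gene, ranged from 40.0 to 51.1 CPM in the 6 vehicle libraries and from 0.206 to 1.83 CPM in the 6 inhibited ones, and all 8 genes of a Wnt response list fell in both regions (7 in antrum without the 2 vehicle libraries named next). Axin2, a direct Wnt target, was at -2.88 ± 0.434 in corpus and -2.61 ± 0.425 in antrum. Markers of non-epithelial cells summed to 0.957 to 2.24 CPM in all libraries. Of the parietal markers, Atp4b, a subunit of the acid pump, had a group mean of at most 0.0125 CPM in all 4 groups. Kcnj15 of the same list had means of 30.0 CPM in corpus vehicle and 17.4 CPM in antral vehicle. The whole parietal list summed to 13.2 to 42.8 CPM in corpus vehicle and 15.6 to 23.5 CPM in antral vehicle. Some libraries stood apart. In antral vehicle, ribosomal-type RNA made up 17.2% of line 8025 and 6.87% of line 8028, where the other 10 libraries held 0.839 to 3.45%. On the second principal component (19.3% of the variance) the vehicle and inhibited corpus libraries of line 8028 (-0.172 and 20.3) sat on the antral side of the remaining corpus libraries (-27.8 to -17.9). Values without these libraries are given beside the results that moved most without them.

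Under Wnt inhibition 5 of the 6 genes rose and 1 fell, in corpus and in antrum alike. Gkn1, Gkn2, Tff1, Tff2 and Tff3 rose between 3.58-fold and 14.7-fold in corpus and between 7.43-fold and 31.8-fold in antrum. Gkn3 fell 4.96-fold in corpus and 2.53-fold in antrum. In both regions the inhibited and vehicle libraries of every member did not overlap. By edgeR's quasi-likelihood test with Benjamini-Hochberg adjustment over all genes (called below an adjusted p of 0.05), 15.5% of tested genes rose in corpus while 15.4% fell, and the antral shares were 16.3% and 13.4%. Groups that did not overlap were frequent among all genes: 19.7% of tested genes were higher and 21.1% lower without overlap in corpus, and 24.1% and 24.6% in antrum. The median change over all tested genes was -0.04 on the log2 scale in both regions. In bulk organoids, a change in the number of cells of a type and a change of RNA per cell cannot be told apart.

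The direction and the call of each member held under RLE, upper quartile and total-count scaling. Scaling to total counts alone moved the median gene to -0.19 in corpus and -0.12 in antrum and lowered the share of higher genes among all called genes from 50.1% to 26.4% in corpus; in antrum it went from 55.0% to 44.4%. Upper quartile scaling put the antral share at 43.6%. The members' log2 changes moved by at most 0.17 with these scalings.

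**Figure D1:**
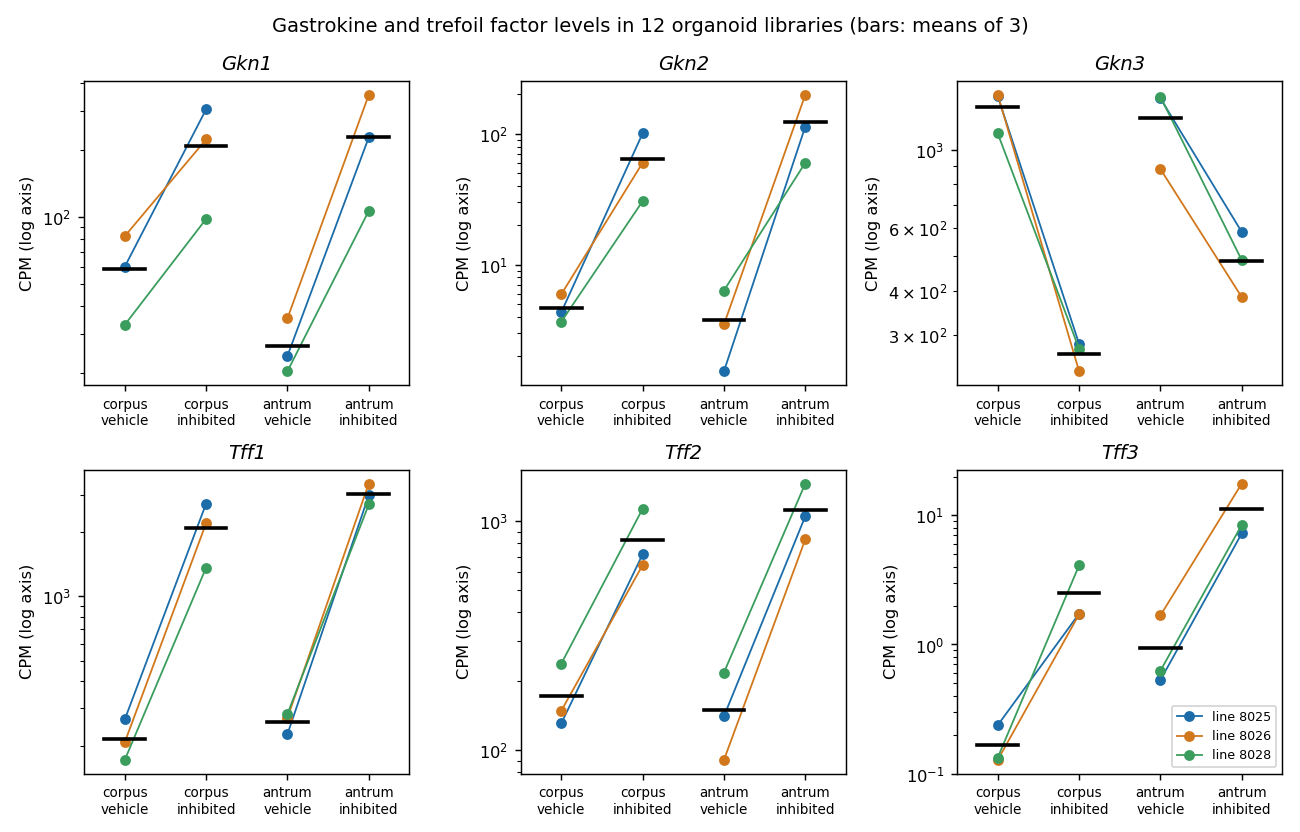
Level of each gene in the 12 libraries, in CPM on a log axis; points are libraries, thin lines join the vehicle and inhibited library of a line, and black bars are group means of 3. Gkn3 is lower in every inhibited library and the other 5 genes are higher, without overlap within either region.

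Gkn1 encodes gastrokine 1, an abundant pit cell protein. In corpus it stood at 60.0, 82.2 and 32.9 CPM in vehicle lines 8025, 8026 and 8028, and at 306, 224 and 98.3 CPM in the same lines after inhibition. In antrum it stood at 23.8, 35.1 and 20.3 CPM in vehicle and at 229, 355 and 107 CPM after inhibition. Line 8028 was the lowest of its group all 4 times, and its inhibited corpus library lay just above the highest corpus vehicle library. The log2 change was 1.84 ± 0.497 (SE) in corpus (adjusted p = 0.0158) and 3.12 ± 0.528 in antrum (adjusted p = 0.00111). Gkn1 was the member whose calls depended on the libraries and settings used. In corpus the adjusted p was 0.056 without the vehicle library of line 8028, 0.0727 without the inhibited library of line 8025, 0.134 without both libraries of line 8025, 0.0543 without both of line 8026 and 0.0738 with no low-count filter, with log2 changes from 1.48 to 2.21 over all alternatives. In antrum it was 0.0618 without the 2 vehicle libraries high in ribosomal-type RNA, with a log2 change of 2.72; that fit leaves 1 antral vehicle library, which is assumed to vary like the other groups.

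Gkn2 encodes gastrokine 2, the partner of TFF1, and had the largest change of the 6 in antrum. Its vehicle level was low: 4.33, 5.93 and 3.66 CPM in corpus lines 8025, 8026 and 8028, and 1.53, 3.49 and 6.35 CPM in the antral lines. After inhibition it reached 101, 60.0 and 30.5 CPM in corpus and 113, 199 and 60.1 CPM in antrum. Every inhibited library lay above every vehicle library of both regions, and line 8028 was again the lowest after inhibition. The log2 change was 3.78 ± 0.571 in corpus (13.7-fold, adjusted p = 0.000524) and 4.99 ± 0.608 in antrum (31.8-fold, adjusted p = 0.000124). Per line the antral rise was 74.0-fold in line 8025, 56.8-fold in line 8026 and 9.47-fold in line 8028. The antral change was 5.87 ± 0.652 without line 8028 (adjusted p = 0.000496) and 4.4 ± 0.695 without line 8026 (adjusted p = 0.003). Behind the smallest antral vehicle level stood 26 counts.

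Gkn3, the gastrokine of neck and deep gland mucous cells, was abundant in vehicle and moved the other way. In corpus it stood at 1413, 1426 and 1110.0 CPM in vehicle lines 8025, 8026 and 8028, and at 284, 237 and 275 CPM after inhibition. In antrum it stood at 1394, 881 and 1408 CPM in vehicle and at 586, 384 and 488 CPM after inhibition. All 6 lines fell, by 4.04-fold to 6.01-fold in the corpus lines and by 2.3-fold to 2.88-fold in the antral lines. The log2 change was -2.31 ± 0.202 in corpus (adjusted p = 1.47e-05) and -1.34 ± 0.195 in antrum (adjusted p = 0.000429). Without the 2 antral vehicle libraries high in ribosomal-type RNA the antral change was -0.86 ± 0.211 (adjusted p = 0.0246); the remaining vehicle library, line 8026, was the lowest of its group.

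Tff1, the trefoil factor of pit cells, rose in all 6 lines by similar factors. In corpus it stood at 265, 207 and 171 CPM in vehicle lines 8025, 8026 and 8028, and at 2721, 2203 and 1364 CPM after inhibition. In antrum it stood at 226, 269.9 and 281 CPM in vehicle and at 2979, 3380.0 and 2697 CPM after inhibition. The rise per line ran from 7.96-fold to 10.6-fold in corpus, with 9.59-fold to 13.2-fold in antrum, and in both regions line 8028 had the smallest. The log2 change was 3.29 ± 0.245 in corpus (adjusted p = 5.05e-06) and 3.54 ± 0.247 in antrum (adjusted p = 3.33e-06), and it kept within 3.08 to 3.68 over all alternatives of both regions. An antisense RNA gene, Gm15318 (ENSMUSG00000086010, chromosome 17 from 31152752 to 31163054, plus strand), covers 221 of the 703 exon bases of Tff1. It rose too, by 4.14 ± 0.302 in corpus (adjusted p = 4.89e-06) and 4.43 ± 0.306 in antrum (adjusted p = 3.08e-06). Its counts were at most 1.12% of those of Tff1 in any library. Whether reads were counted by strand was not given in the sources used here, and reads of Gm15318 and Tff1 over the shared bases cannot be told apart.

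Tff2 encodes the trefoil factor usually found with MUC6 in neck and deep gland cells. In corpus it stood at 131, 149 and 238 CPM in vehicle lines 8025, 8026 and 8028, and at 715, 642 and 1131 CPM after inhibition. In antrum it stood at 140.5, 90.7 and 218 CPM in vehicle and at 1049, 831 and 1457 CPM after inhibition. Line 8028, lowest for Gkn1, was the highest of its group for Tff2 all 4 times, yet its rise of 4.74-fold in corpus and 6.68-fold in antrum lay among those of the other lines or below them. The log2 change was 2.26 ± 0.359 in corpus (4.80-fold, adjusted p = 0.000721) and 2.89 ± 0.369 in antrum (7.43-fold, adjusted p = 0.000168). Without the 2 antral vehicle libraries high in ribosomal-type RNA the antral change was 3.62 ± 0.528 (adjusted p = 0.00241). Muc6, the mucin that usually accompanies it, changed in the opposite direction, by -4.04 ± 0.376 in corpus (adjusted p = 2.14e-05) and -3.38 ± 0.358 in antrum (adjusted p = 4.51e-05).

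Tff3, the intestinal member, was the rarest. In corpus vehicle it had 8, 4 and 4 counts in lines 8025, 8026 and 8028, equal to 0.237, 0.128 and 0.133 CPM, which is close to the limit of 3 counts. After inhibition these lines had 42, 40 and 109 counts (1.73, 1.71 and 4.10 CPM). The antral lines had 9, 51 and 15 counts in vehicle (0.531, 1.68 and 0.626 CPM) and 206, 473 and 216 counts after inhibition (7.25, 17.6 and 8.45 CPM). Tff3 thus rose from near the detection limit in corpus, and its antral levels lay above the corpus levels of the same arm in every library. The log2 change was 3.88 ± 0.646 in corpus (adjusted p = 0.000974) and 3.48 ± 0.52 in antrum (adjusted p = 5e-04). The antral change was 2.73 ± 0.699 without the 2 vehicle libraries high in ribosomal-type RNA (adjusted p = 0.0287) and 4.26 ± 0.579 without the third, line 8026 (adjusted p = 0.000557). The corpus change was 3.22 ± 0.761 without line 8028 (adjusted p = 0.00881). The ratio of summed counts, scaled for library size, was 15.3 in corpus (95% exact interval 9.18 to 27.3) and 10.5 in antrum (8.31 to 13.5); these intervals cover counting error only.

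**Figure D2:**
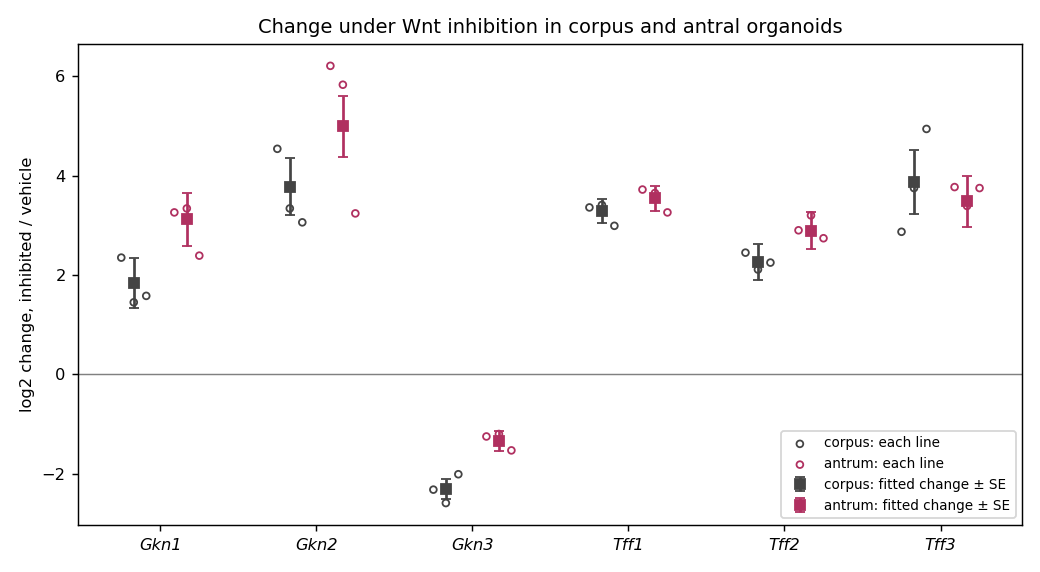
Log2 change from vehicle to inhibited for each gene; squares with bars are the fitted change ± SE in corpus (grey) and antrum (red), and open circles are the ratios of the 3 lines. Gkn3 is below 0 in all 6 lines and the other genes are above 0 in all 6, with the widest spread of lines for Gkn2 in antrum.

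Inhibition changed which of the 6 genes made up most of their RNA. On a per-length scale (CPM per kb of exon), which allows genes to be compared, Gkn3 made up 64.1 to 73.6% of the RNA of the 6 genes in the vehicle libraries and 5.71 to 9.69% in the inhibited ones. Tff1 went from 12.3 to 23.9% in vehicle to 44.9 to 66.7% after inhibition, and Tff2 from 9.68 to 20.6% to 19.6 to 44.8%. The make-up of line 8028 leaned to Tff2 in both regions. In corpus its shares of Tff1 and Tff2 were 44.9% and 44.8% after inhibition, against 65.7 to 66.7% and 21.1 to 23.1% in the other 2 corpus lines. In antrum they were 54.2% and 35.2% after inhibition, against 60.0 to 66.3% and 19.6 to 25.4% in lines 8025 and 8026. In mean CPM per kb, Gkn3 ranked 8th in corpus vehicle and 11th in antral vehicle among 21899 protein-coding genes, and 133rd and 58th after inhibition. Tff1 ranked 117th and 82nd in vehicle and 6th and 3rd after inhibition. Tff2 went from rank 123 to 19 in corpus (143 to 10 in antrum), Gkn1 from 933 to 251 and from 2257 to 233, Gkn2 from 6476 to 576 and from 7149 to 274, and Tff3 from 11742 to 6838 and from 9623 to 2311. All 6 genes together held 0.19 ± 0.0188% of all counts in corpus vehicle (SD, n = 3) and 0.333 ± 0.0553% after inhibition, and 0.167 ± 0.0275% in antral vehicle and 0.478 ± 0.0146% after inhibition.

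**Figure D3:**
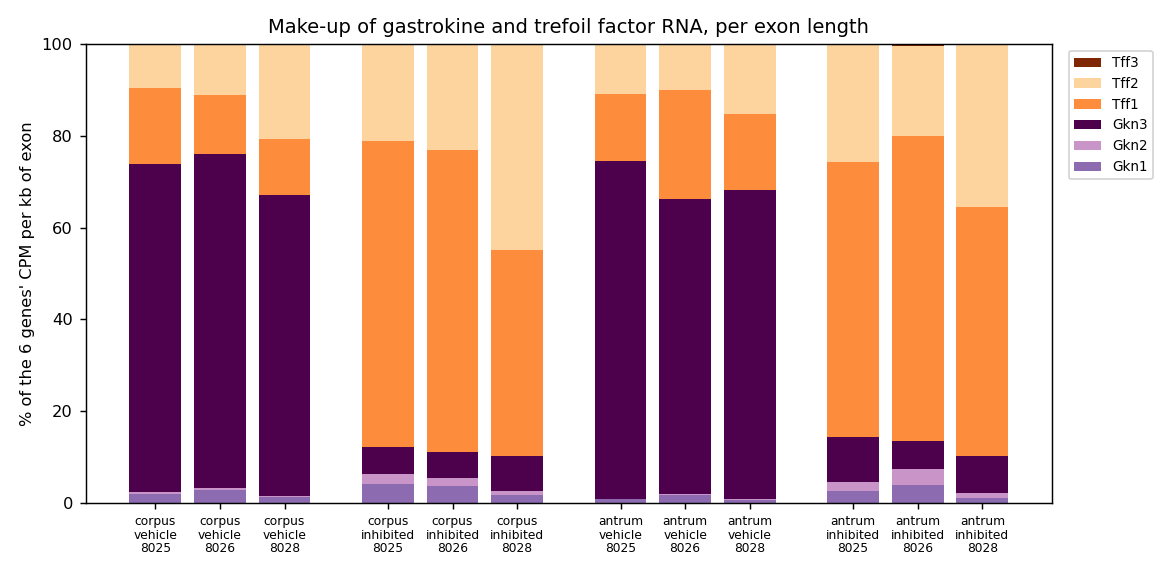
Share of each of the 6 genes in their summed CPM per kb of exon (vertical axis, %), 1 bar per library, grouped by region and arm with the line number below. Gkn3 fills most of each vehicle bar and Tff1 with Tff2 most of each inhibited bar; Tff3 is too small to see in most bars.

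The order of the 4 groups by mean CPM differed between the genes. For Gkn1 the order from high to low was antral inhibited (230.2 ± 124 CPM, SD, n = 3), corpus inhibited (209 ± 104), corpus vehicle (58.3 ± 24.7) and antral vehicle (26.4 ± 7.73). The 2 inhibited groups overlap, and so do the 2 vehicle groups. For Gkn2 it was antral inhibited (124 ± 69.8), corpus inhibited (63.7 ± 35.2), corpus vehicle (4.64 ± 1.17) and antral vehicle (3.79 ± 2.42), again with overlap within each arm. Gkn3 had the reverse order of arms: corpus vehicle (1316 ± 179), antral vehicle (1228 ± 300.1), antral inhibited (486 ± 101) and corpus inhibited (265 ± 24.5). Its vehicle groups overlap and its inhibited groups do not. Tff1 ran from antral inhibited (3019 ± 343) and corpus inhibited (2096 ± 685) to antral vehicle (259 ± 29.1) and corpus vehicle (215 ± 47.3). Tff2 ran from antral inhibited (1112 ± 318) and corpus inhibited (829 ± 264) to corpus vehicle (173 ± 57.7) and antral vehicle (149.8 ± 64.2). For Tff1 and Tff2 the regions overlap within each arm. Tff3 ran from antral inhibited (11.1 ± 5.69) and corpus inhibited (2.51 ± 1.37) to antral vehicle (0.946 ± 0.638) and corpus vehicle (0.166 ± 0.0617). These 4 groups did not overlap in TMM-scaled CPM. The lowest corpus inhibited library (1.71 CPM, 40 counts) lay just above the highest antral vehicle library (1.68 CPM, 51 counts). In CPM from total counts these 2 libraries stood at 1.64 and 1.87 CPM, so corpus inhibited and antral vehicle overlapped.

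Antrum and corpus were next compared within each arm. None of the 6 genes was called in vehicle, where 0.198% of tested genes were, or after inhibition, where 0.0619% were. Tff3 was 2.53 ± 0.696 higher in antrum than in corpus on the log2 scale in vehicle (95% interval 1.00 to 4.06, unadjusted p = 0.00382, adjusted p = 0.145, edgeR) and 2.13 ± 0.474 higher after inhibition (1.09 to 3.17, unadjusted p = 0.00086, adjusted p = 0.202). Gkn3 differed by -0.10 in vehicle (-0.52 to 0.32) and by 0.87 ± 0.194 after inhibition (0.45 to 1.3, unadjusted p = 0.000865, adjusted p = 0.202). These were the members whose regions did not overlap, among 22.5% of tested genes without overlap in vehicle and 11.8% after inhibition. Gkn1 in vehicle (-1.14, unadjusted p = 0.0446, adjusted p = 0.309) and Tff1 after inhibition (0.53, unadjusted p = 0.0383, adjusted p = 0.515) were the other members with an unadjusted p below 0.05. DESeq2 called more genes, 497 in vehicle and 149 after inhibition, against 32 and 10 with edgeR. Among them were Tff3 in vehicle (adjusted p = 0.00526), and Tff3 (0.00511) and Gkn3 (0.00263) after inhibition.

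The regional result after inhibition depended on corpus line 8028. Without both of its libraries, edgeR called Tff3 (log2 difference 2.68 ± 0.51, adjusted p = 0.0149) and Gkn3 (0.90 ± 0.23, adjusted p = 0.0354), and the number of genes called in all went from 10 to 2386. Without its inhibited library alone the adjusted p was 0.0173 for Tff3 and 0.037 for Gkn3. When line 8028 of both regions was left out, edgeR called Tff3 (2.84 ± 0.537, adjusted p = 0.0256) but not Gkn3. In vehicle none of the 6 was called without corpus line 8028, and Tff3 had an adjusted p of 0.0847. Without the 2 antral vehicle libraries high in ribosomal-type RNA, Tff3 in vehicle was at 3.29 with an adjusted p of 0.222.

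**Figure D4:**
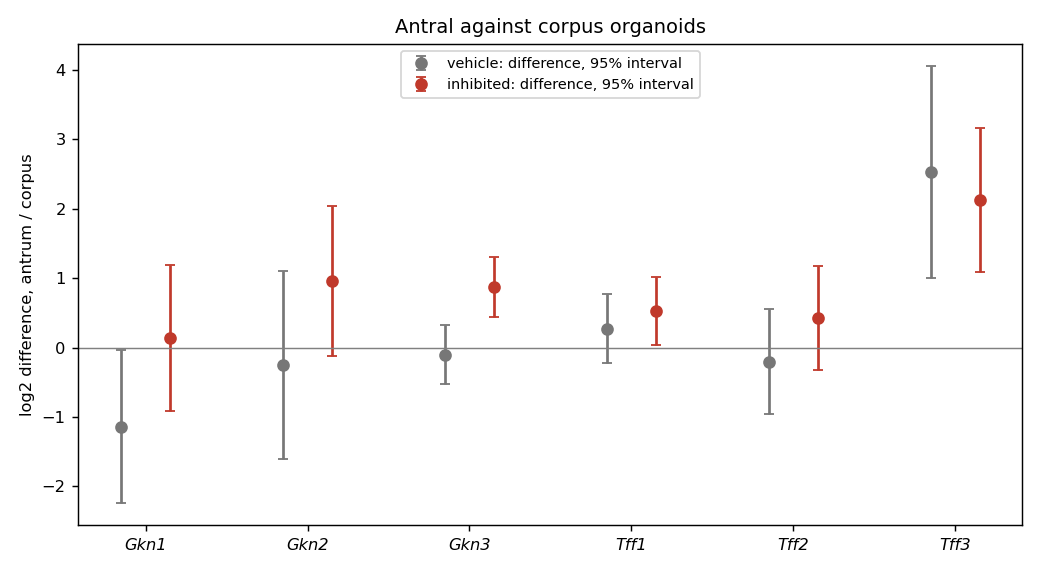
Log2 difference of antrum from corpus for each gene with its 95% interval, in vehicle (grey) and after inhibition (red). The intervals of Tff3 lie above 0 in both arms and those of Gkn3 and Tff1 after inhibition only; no difference passed adjustment over all genes.

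The 2 regions' responses were compared directly as the antral change minus the corpus change. None of the 6 was called, where 1 of 16152 genes (0.00619%) was, and all 6 had an adjusted p of 1 with edgeR and no call with DESeq2. The estimates were 1.27 ± 0.693 for Gkn1, 1.21 ± 0.784 for Gkn2, 0.25 ± 0.317 for Tff1, 0.63 ± 0.486 for Tff2 and -0.40 ± 0.814 for Tff3. Gkn3 had the smallest unadjusted p (0.00426), with a fall in antrum that was 0.98 ± 0.273 less deep on the log2 scale (95% interval 0.38 to 1.57). The intervals are wide: for Gkn2 the interval runs from -0.51 to 2.94, so the test does not show that the regions respond alike.

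For each member the 5 tested genes with the most similar profile were found as those with the smallest root mean square difference between log2(CPM + 1) profiles over the 12 libraries, each centred on its own mean, among genes with a mean of at least 5 CPM. This is a description: the 12 libraries share the 2 arms, the 2 regions and the lines. Gkn1 was nearest to S100g, which encodes the calcium-binding protein calbindin D9k (0.458), Psca (0.471), a pit cell surface protein, Lypd6b, Nqo1 and Krt79. Gkn2 was nearest to the pit cell mucin gene Muc5ac (0.648), Gm15318, Sult1b1, Cyp2c65 and Aqp3, a water and glycerol channel; with a pseudocount of 0.1, Muc5ac was not among its 5 nearest and Sult1b1 came first. Tff1 was nearest to Gm15318 (0.19), with which it shares exon bases, then Sult1b1 (0.365), Krt20, a keratin of differentiated surface cells (0.373), Gjb1 and Sytl2.

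Gkn3 was nearest to Tgm2, which encodes tissue transglutaminase (0.3), Engase, Slco5a1, Shank2 and Spp1, which encodes osteopontin. These 5 genes fell in both regions, with log2 changes of -2.39 to -1.66 in corpus and of -2.23 to -1.40 in antrum. Tff2 was nearest to Tcf23, Sult1d1, Ugt1a6a, Zbtb7c and Sptssb, at 0.354 to 0.404. Tff3 was nearest to Rep15, Sema4g, Nid1, Suox and Tm4sf5. With a pseudocount of 0.1, none of these 5 was among its nearest, so for a gene with so few counts the choice rests on the pseudocount. Of the other members each kept 4 of 5, and beside Muc5ac the genes that dropped out were Krt79 for Gkn1, Spp1 for Gkn3, and the nearest genes of Tff1 (Gm15318) and Tff2 (Tcf23). Between members the smallest difference was that of Gkn2 and Tff1 (0.595), then Tff1 and Tff2 (0.74), and Gkn3 stood 2.06 to 3.00 from the other 5.

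The neighbours of the 2 clusters were read next. Of 13 other protein-coding genes that start within 250 kb of a member, 9 were tested and 3 were called in each region, the same 3, all next to the trefoil factors. Over all tested genes 30.9% were called in corpus and 29.7% in antrum, so the count does not set these neighbours apart. Tmprss3, which encodes a membrane serine protease and starts 33.7 kb from Tff1, rose by 2.65 ± 0.309 in corpus (adjusted p = 8.9e-05) and 2.95 ± 0.316 in antrum (4.57e-05). Slc37a1, which encodes a sugar-phosphate transporter and starts 122 kb from Tff1, rose by 0.82 ± 0.0868 and 0.95 ± 0.0873 (adjusted p = 4.84e-05 and 1.75e-05). Abcg1, a cholesterol exporter gene 72.0 kb on the other side of Tff3, fell by 1.79 ± 0.322 and 1.95 ± 0.322 (adjusted p = 0.00152 and 0.000898). Next to the gastrokines, Antxr1, which encodes an anthrax toxin receptor and starts 15.1 kb from Gkn1, was at -1.25 ± 0.465 in corpus (adjusted p = 0.062) and -1.01 ± 0.473 in antrum (adjusted p = 0.131). Antxr1 passed under 4 of 17 alternatives in corpus and 3 of 18 in antrum. Among these was the line as a replicate block, at adjusted p = 0.00114 and 0.00541. The starts of Gkn1 and Gkn2, which rose, lie 22415 bases apart, and that of Gkn3, which fell, lies 15578 bases beyond Gkn2.

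**Figure D5:**
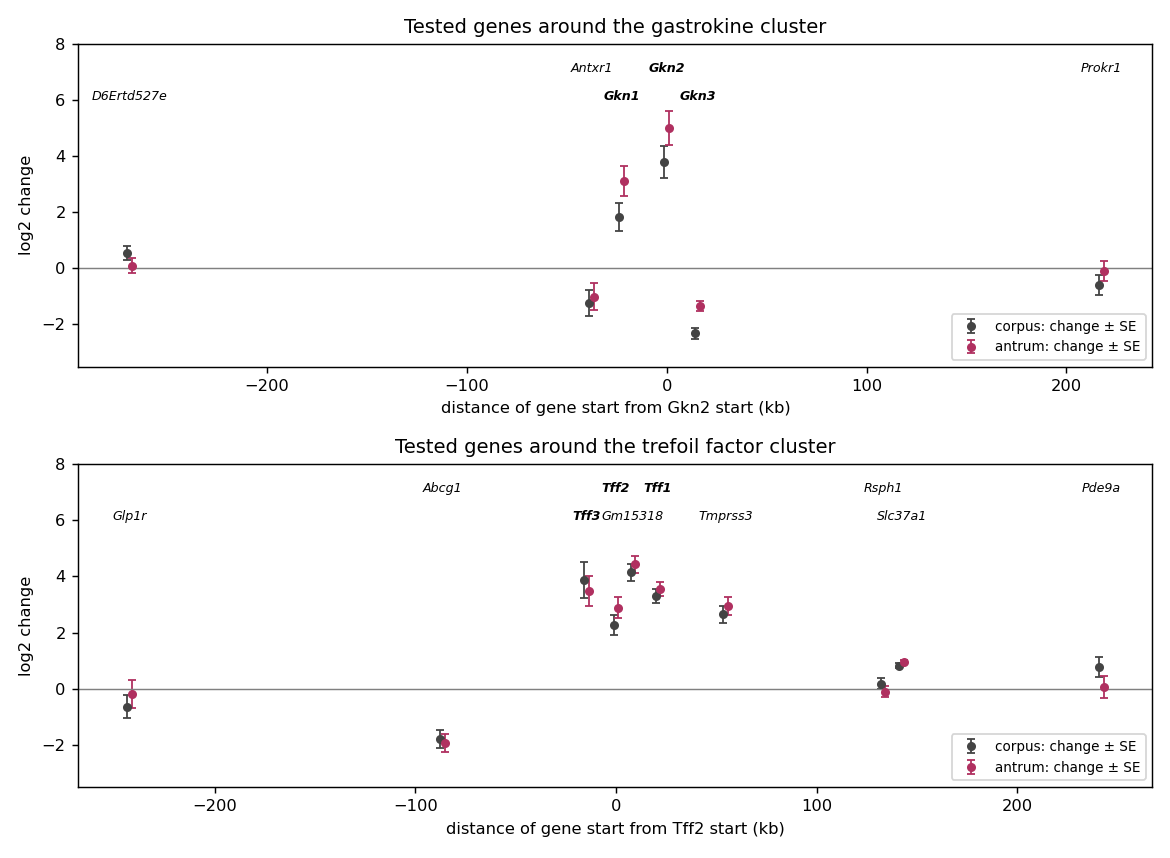
Log2 change ± SE under inhibition in corpus (grey) and antrum (red) for tested genes around each cluster, against the distance in kb of the gene start from the Gkn2 start (top) or the Tff2 start (bottom); members are in bold. Gkn3 lies below 0 beside Gkn1 and Gkn2, and around the trefoil factors Tmprss3 is high and Abcg1 low.

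Secretory partners were read from a list of 12 mucins and genes that process them, of which 10 were tested. The corpus counts were 5 risen and 1 fallen (list median 0.70, all genes -0.04), and the antral counts 6 and 1 (list median 0.88). Muc5ac rose by 5.66 ± 0.653 in corpus (adjusted p = 8.84e-05) and 6.67 ± 0.708 in antrum (adjusted p = 4.54e-05), from a mean of 0.814 to 42.4 CPM and of 0.663 to 65.6 CPM. Muc5b, far rarer, rose by 5.87 ± 0.929 in corpus (edgeR, adjusted p = 0.000708), from a mean of 0.0296 to 2.10 CPM. In antrum it rose by 5.35 (edgeR, adjusted p = 0.00667), from 0.0139 to 0.755 CPM, a call lost under 3 of 18 alternatives. Mucl3, a mucin-like gene, rose by 4.55 ± 0.272 and 6.07 ± 0.297 (adjusted p = 1.94e-06 and 5.46e-07), and Ern2, an endoplasmic reticulum stress sensor of mucous cells, by 0.85 ± 0.0864 and 1.09 ± 0.0869. Muc6 was the member that fell. Muc2, the goblet cell mucin usually found with TFF3, stayed near 2 CPM, at -0.08 ± 0.555 in corpus (adjusted p = 0.933) and 0.03 ± 0.574 in antrum (0.978).

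Of 5 genes for receptors reported to bind trefoil factors or to act downstream of them, 3 were tested, and in each region 1 rose and 1 fell. Cxcr4, a chemokine receptor reported for TFF2, fell by 2.92 ± 0.437 in corpus (adjusted p = 0.000483) and 2.92 ± 0.429 in antrum (0.000435), from a mean of 5.36 to 0.695 CPM and of 6.15 to 0.815 CPM. Egfr, the epidermal growth factor receptor, rose by 0.37 ± 0.0889 and 0.53 ± 0.0891 (adjusted p = 0.008 and 0.000995), and in corpus its call was lost with total-count scaling and without line 8026. Lingo2, a receptor reported for TFF3, had 0 counts in all 12 libraries, which allows up to 3 counts in each. The other BRICHOS genes were mostly rare: 3 of 7 were tested. Itm2a fell by 1.17 ± 0.354 and 1.34 ± 0.441, and Itm2c by 0.46 ± 0.157 and 0.49 ± 0.158 (adjusted p from 0.0262 to 0.0449; in corpus these calls were lost under 6 and 8 of 17 alternatives, and in antrum under 9 and 11 of 18), while Itm2b rose in antrum by 0.65 ± 0.17 (adjusted p = 0.0147), a call lost under 4 of 18 alternatives.

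Among 16 transcription factors of stomach and intestine, 8 rose while 4 fell in corpus, and the antral counts were 7 and 4 (5 and 2 without the 2 vehicle libraries high in ribosomal-type RNA). Klf4, a factor of differentiating surface epithelium, rose by 2.68 ± 0.158 and 2.57 ± 0.157 (adjusted p = 1.94e-06 and 1.66e-06), and Foxq1, known for its part in Muc5ac expression of pit cells, by 1.2 ± 0.0917 and 0.91 ± 0.0912 (adjusted p = 5.55e-06 and 3.02e-05). Hnf4a rose by 0.68 ± 0.0588 and 0.72 ± 0.0589. Spdef, a factor of mucous secretory cells, fell by 0.61 ± 0.0739 and 0.65 ± 0.0735 (adjusted p = 0.000112 and 6.71e-05). The GATA factors did not share a direction. Gata4 rose by 0.51 ± 0.0862 and 0.45 ± 0.0865, and Gata5 fell by 0.49 ± 0.0699 and 0.47 ± 0.0699. Gata6 rose in corpus by 0.34 ± 0.106 (edgeR, adjusted p = 0.0319), and its antral means were 57.7 CPM in vehicle and 66.1 CPM after inhibition. The calls of single GATA factors were not followed under the alternatives.

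Markers of the gastric mucous cell types known to make these peptides were then read. All 8 pit cell markers rose in both regions, and their summed level went from 926 to 1208 CPM in corpus vehicle to 2306 to 3087 CPM after inhibition, and from 919 to 1086 CPM to 2677 to 2990 CPM in antrum. Krt20 rose by 3.24 ± 0.295 and 3.43 ± 0.299, and Psca by 2.32 ± 0.365 and 2.76 ± 0.377. Of 5 neck and deep gland markers, all fell in corpus and 4 in antrum (3 without the 2 antral vehicle libraries high in ribosomal-type RNA), and their sum went from 938 to 1368 CPM in corpus vehicle to 207 to 276 CPM after inhibition; in antrum it went from 956 to 1298 CPM to 290.2 to 329 CPM. A4gnt, which caps the glycans of MUC6, fell by 4.24 ± 0.362 and 3.51 ± 0.349, and Aqp5 by 2.92 ± 0.206 and 2.37 ± 0.201. Aqp5 was the largest part of the sum in vehicle, with means of 649 CPM in corpus and 504 CPM in antrum. The call of Cd44, of the same list, was lost under 1 of 17 alternatives in corpus and 11 of 18 in antrum. Gkn1, Gkn2 and Tff1 rose with the markers of their usual source and Gkn3 fell with those of its own, while Tff2 rose where the neck and deep gland markers fell; the part of cell numbers in either was not tested.

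Tff3 was read beside markers of goblet cells, its usual source. Of 7 markers 4 were tested; in corpus Clca1, which encodes a secreted protein of goblet mucus, rose by 4.02 ± 0.486 (adjusted p = 0.000118). In antrum Clca1 rose by 4.83 ± 0.451 (adjusted p = 2.08e-05) and Fcgbp, another mucus protein gene, by 3.14 ± 0.914 (adjusted p = 0.0236), a call that was lost under 10 of 18 alternatives. The summed level of the list went from 10.1 to 11.0 CPM in corpus vehicle to 24.9 to 73.4 CPM after inhibition, and in antrum from 13.1 to 28.1 CPM to 232 to 339 CPM; Clca1 made up most of it after inhibition, with a mean of 29.1 CPM in corpus and 243 CPM in antrum, but not in vehicle, with 1.82 CPM in corpus and 8.43 CPM in antrum. Between regions Clca1 differed in the direction of Tff3. It was 2.24 ± 0.502 higher in antrum than in corpus in vehicle (adjusted p = 0.0963) and 3.06 ± 0.406 higher after inhibition (adjusted p = 0.0423), a call lost under 10 of 18 alternatives. Of the defining markers, Muc2 stayed near 2 CPM, Zg16 and Atoh1 were at 0 in all corpus libraries, and Atoh1, the goblet lineage factor, had a mean of 0.112 CPM in the antral inhibited group. Of 6 enterocyte markers, 5 were tested; 1 rose in corpus (4 without line 8028) and 2 in antrum (1 of 6 without the 2 vehicle libraries high in ribosomal-type RNA), among them Fabp2 by 2.96 ± 0.551 and 3.11 ± 0.534. The part of such cells in the rise of Tff3, or in its regional difference, was not tested.

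The remaining marker lists held few calls. Of 3 tested chief cell markers 2 fell in each region, Cblif (-4.96 ± 0.462 and -3.39 ± 0.441) and Pgc (-3.21 ± 0.43 and -1.75 ± 0.408); without the 2 antral vehicle libraries high in ribosomal-type RNA, 1 fell in antrum. Of 2 tested parietal markers both fell in corpus (calls lost under 6 and 8 of 17 alternatives) and none in antrum, and of 2 tested endocrine markers none was called. Of 5 tested squamous markers 2 rose in each region, Krt13 by 2.14 ± 0.263 and 1.78 ± 0.261 and Krt4 by 1.68 ± 0.344 and 1.70 ± 0.344; without the 2 antral vehicle libraries 1 rose in antrum. Of 3 tested non-epithelial markers 1 rose in corpus, while antrum had 1 in each direction, all at means below 1 CPM. The corpus call, of Pecam1, was lost under 11 of 16 alternatives. In antrum the call of Ptprc, which rose, was lost under 13 of 17, and that of Col1a1, which fell, under 1 of 17.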

How the data were processed

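PolyA RNA was isolated from the organoids and sequenced, per the labels' protocols. The authors deposited 1 table of expected counts per gene, whole numbers in the file; per the submitters' processing notes the tools were cutadapt 2.3, FastQC 0.11.8, STAR 2.7.8a and RSEM 1.3.3 with GRCm38, without their roles. The tools' settings, the annotation release and the strand setting were not given in the sources used here. Of 55426 rows, 5 transgene rows (2 counts in all) were left out. Rounding changed no value.

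Groups follow the labels, which give the vehicle treatment as none. edgeR 4.0.16 (R 4.3.3) fitted all 12 libraries with TMM scaling, filterByExpr by group and a robust quasi-likelihood model (8 residual degrees of freedom), two-sided, with Benjamini-Hochberg adjustment over 16152 genes at 0.05; SE is the log2 change over the root of F. The procedure was run on simulated counts without line effects, in which only the corpus inhibited group was changed. That run does not cover the comparisons of regions or the pairing of libraries by line. CPM per kb uses the union of GENCODE mouse release 21 exons. Vehicle and inhibited libraries of a line are paired by protocol: their deviations from group means correlated at 0.277 to 0.644. The main fit held no line block, so its SE and p-values for the responses do not use this pairing. A fit with the line as a block is among the alternatives. Same-numbered lines of the 2 regions correlated at -0.231 to 0.439 and were likewise left unpaired in the main fit. All library pairs within a group differed beyond counting noise (smallest chi-square per degree of freedom, 10.0).

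Alternatives included scaling by RLE, upper quartile or total counts, 2 other low-count filters, DESeq2 1.42.0, fits of the compared libraries only, a line block, another gene length, another pseudocount, and leaving out libraries or lines; the sets leaving out antral vehicle lines 8025 and 8028, or corpus line 8028, and the regional comparison of Clca1 under all alternatives, were chosen after seeing the data. The named genes are the 6 members, the 5 nearest profiles of each, the neighbours within 250 kb, Lgr5 and Axin2, and genes of 14 lists. The rule for the lists was up to 4 called genes of each, by absolute log2 change. Further list genes were named outside that rule, called or not: Ern2, Gata4, Gata5, Gata6, Muc2, Lingo2, Zg16, Atoh1 and Atp4b. Members and lists were chosen with earlier results of these data known. Of the 6 members, 3 matched the RefSeq promoter table.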

Additional observations from a re-analysis of the deposited data

How the results depend on the processing

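Over 210 combinations of a member, a region's response and an alternative, 204 kept their direction and call, 6 (all of Gkn1) kept the direction and lost the call, and 0 reversed. With the line within a region as a replicate block all 6 members stayed called in both responses, with 7022 and 6594 genes called in all against 4985 and 4794 without it. Leaving out libraries or a line gave 2550 to 6888 genes called in corpus and 2710 to 4207 in antrum, and 2740 in antrum without vehicle lines 8025 and 8028.

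The regional counts moved most, and the cause was not tested. In vehicle, 32 genes were called; the count was 17 with RLE, 18 with upper quartile, 61 with total counts, 68 without the low-count filter, 497 with DESeq2 (1 member), 18 with only the libraries compared, 69 with the line number as replicate block, 2 without antral vehicle lines 8025 and 8028, 1080 without corpus line 8028, and 0 to 1428 with libraries or lines left out. After inhibition, 10 were called, and the count was 3 with upper quartile, 3 with total counts, 16 without the filter, 149 with DESeq2 (2 members), 0 with only the libraries compared, 37 with the block, 2386 without corpus line 8028 (2 members), and 0 to 1895 with libraries or lines left out (0 to 2 members). For the difference between responses, 1 was called, and 5 with DESeq2, 7 with the block, 3 without corpus line 8028 and 0 to 7 with libraries or lines left out. The share of higher genes among those called went from 34.4% to between 11.5% and 50.0% over the scalings in vehicle and from 80.0% to between 66.7% and 100% after inhibition.

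Only uncalled regional values of members changed sign. Without corpus line 8028 these were Tff2 in vehicle (0.10), Gkn1 after inhibition (-0.21) and the difference between responses of Tff3 (0.26). With 1 library or 1 line left out, the vehicle difference ran from -0.907 to 0.0767 for Gkn2, from -0.32 to 0.15 for Gkn3 and from -0.58 to 0.10 for Tff2, that after inhibition from -0.32 to 0.52 for Gkn1, and the difference between responses from -0.97 to 0.36 for Tff3. Without antral vehicle lines 8025 and 8028 the vehicle difference was -0.58 for Gkn3 and -0.93 for Tff2, and the difference between responses was -1.16 for Tff3. Mean levels moved by less than 1 SD with total-count CPM or the longest transcript. Depth limits mainly Tff3, with 4 to 8 counts per library in corpus vehicle.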
